A study of Mus musculus with 3 samples.

Results

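Setd1a peaks were described at 10 genes of glycolysis, namely *Hk1*, *Hk2*, *Gpi1*, *Pfkl*, *Aldoa*, *Gapdh*, *Pgk1*, *Eno1*, *Pkm* and *Ldha*, out of 21938 protein-coding genes of the GENCODE M21 annotation. The genes were named for their enzymes, but with earlier results of these data known. Every interval of the Setd1a peak list within 3000 bp of an annotated transcription start site (TSS) or inside the gene was then collected. Where there was none, the distance to the nearest peak was taken. *Pgk1* is also among the genes that the study itself picked out with the help of these peaks, so its peak is described here and is no independent evidence. The peaks came from CUT & RUN, in which an antibody bound to chromatin directs a nuclease to release the DNA beside the bound protein for sequencing. The cells were adult NSCs of the dentate gyrus, labelled neural progenitor cells of WT genotype, from Hopx-CreERT2::Setd1afl/fl::H2B-GFP mice aged 7 to 8 weeks, and quiescence had been induced by BMP4 and FGF2, each at 20 ng/ml, in the absence of EGF, up to day 5. In the culture scheme of the paper, lentivirus for GFP or Cre-GFP is added before harvest, and WT there means GFP without Cre. The paper does not say outright which virus, if any, the CUT & RUN cultures received. The antibody was against Setd1a in 2 libraries and was rabbit IgG in 1 control library, and these groups shared genotype, treatment and day. The deposited list held 6969 peaks found in both Setd1a libraries, as positions only. It gives no height, no value per library and no expression, so neither the spread between cultures nor the identity of the cells could be checked, and the IgG signal over these intervals was not analysed here.

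Glycolysis splits glucose into pyruvate through a chain of cytosolic enzymes, and lactate dehydrogenase turns pyruvate into lactate. Quiescent neural stem cells and their progeny are known to differ in how far they rely on glycolysis and on mitochondrial respiration. *Pgk1* encodes phosphoglycerate kinase, the enzyme of the first glycolytic step that yields ATP, and lies on the X chromosome. Setd1a is the catalytic subunit of a complex that methylates histone H3 at lysine 4, a mark of active promoters, and promoters of widely expressed genes such as these are often rich in CpG dinucleotides.

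The promoter sequences of *Pgk1*, *Ldha* and *Hk2* show the contrast among the genes. *Pgk1* and *Ldha* had CpG-rich promoters under a peak, and *Hk2* had a CpG-rich promoter with no peak. Capitals mark 4 motifs on either strand, namely ACGTG (the core of the hypoxia response element), CACGTG (an E-box, which contains ACGTG on both strands), GGGCGG (a GC box) and CCAAT (the box of that name). All are GRCm38.p6 sequence, printed 5′ to 3′ on the strand of the gene, and the windows end at the base before the RefSeq start.
*Pgk1*, chrX:106186850-106187099, plus strand, 237 of 250 bases in the peak: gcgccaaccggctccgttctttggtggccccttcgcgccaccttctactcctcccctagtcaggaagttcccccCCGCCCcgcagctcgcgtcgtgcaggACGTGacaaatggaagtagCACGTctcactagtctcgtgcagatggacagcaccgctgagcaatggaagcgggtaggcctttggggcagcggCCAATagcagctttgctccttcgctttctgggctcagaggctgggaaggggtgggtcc
*Ldha*, chr7:46845554-46845803, plus strand, 233 of 250 bases in the peak: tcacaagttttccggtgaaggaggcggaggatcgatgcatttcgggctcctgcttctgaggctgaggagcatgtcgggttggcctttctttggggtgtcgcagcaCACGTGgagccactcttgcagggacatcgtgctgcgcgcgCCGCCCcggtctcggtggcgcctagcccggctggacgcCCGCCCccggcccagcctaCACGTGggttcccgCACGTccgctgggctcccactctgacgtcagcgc
*Hk2*, chr6:82774455-82774704, minus strand, 0 of 250 bases in a peak: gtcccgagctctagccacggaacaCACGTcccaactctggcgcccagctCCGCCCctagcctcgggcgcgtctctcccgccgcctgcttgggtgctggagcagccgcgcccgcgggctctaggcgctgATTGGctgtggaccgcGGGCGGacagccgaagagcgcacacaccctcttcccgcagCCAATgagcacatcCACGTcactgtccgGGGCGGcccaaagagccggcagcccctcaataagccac
None of the printed bases lies in an annotated exon. The *Pgk1* window had 17 CpGs and a GC content of 62.8%, and that of *Ldha* had 25 CpGs and 67.2%. The *Hk2* window, without a peak, was as dense in CpGs as that of *Ldha*, with 25 CpGs and 69.6% GC.

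A promoter peak, defined as a peak within 3000 bp of any TSS of the gene, was present at 7 of the 10 genes, *Hk1*, *Pfkl*, *Aldoa*, *Gapdh*, *Pgk1*, *Eno1* and *Ldha*. Across all protein-coding genes the share was 23.0% (5036 of 21938). *Hk2*, *Gpi1* and *Pkm* had none. The peak overlapped the TSS of a transcript of any kind at 6 genes, all of the 7 except *Pgk1*, against 16.4% of all protein-coding genes. With only principal transcripts (the main isoforms by the APPRIS annotation) and a window of 1000 bp, 6 genes had a peak, against 20.1%. *Hk1* did not. A principal start lay inside the peak only at *Gapdh* and *Eno1*. Its distance was 14 bp at *Pgk1*, 53 bp at *Ldha*, 62 bp at *Pfkl*, 90 bp at *Aldoa* and 17815 bp at *Hk1*. Genes with more annotated starts more often have a peak near one of them, and 8 of the 10 genes had at least 8 distinct TSSs. Among protein-coding genes with at least 8 TSSs, 43.7% had a promoter peak, and 6 of these 8 genes did. *Hk2* was in the class of 4 to 7 TSSs, in which the share was 29.9%, and *Pgk1* in the class of 2 to 3, in which it was 15.7%. With 1 combined list and no replicate values, no test of these counts was made.

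The same 7 genes had a peak within 100 bp of a RefSeq start, a smaller set of annotated starts, against 17.7% of 17492 RefSeq protein-coding genes. RefSeq starts were chosen after seeing the data, and 100 bp was not among the planned windows. Within 1000 bp of a RefSeq start the count was also 7, against 21.1%. Their distances were 0 bp at *Hk1* and *Eno1*, 14 bp at *Pgk1* and *Aldoa*, 18 bp at *Ldha*, 58 bp at *Gapdh* and 62 bp at *Pfkl*. Thus 7 genes had a peak next to a RefSeq start, and 3 had none within 20 kb of any TSS. At *Hk1* this start was internal, and its principal starts were at least 17815 bp from a peak. Peaks inside the gene were present at 6 genes, again all of the 7 except *Pgk1*, against 23.0% of all protein-coding genes (5045 of 21938). None of the 10 genes had a peak in its body that was over 3000 bp from its TSSs, against 4.50% of all protein-coding genes.

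**Figure D1:**
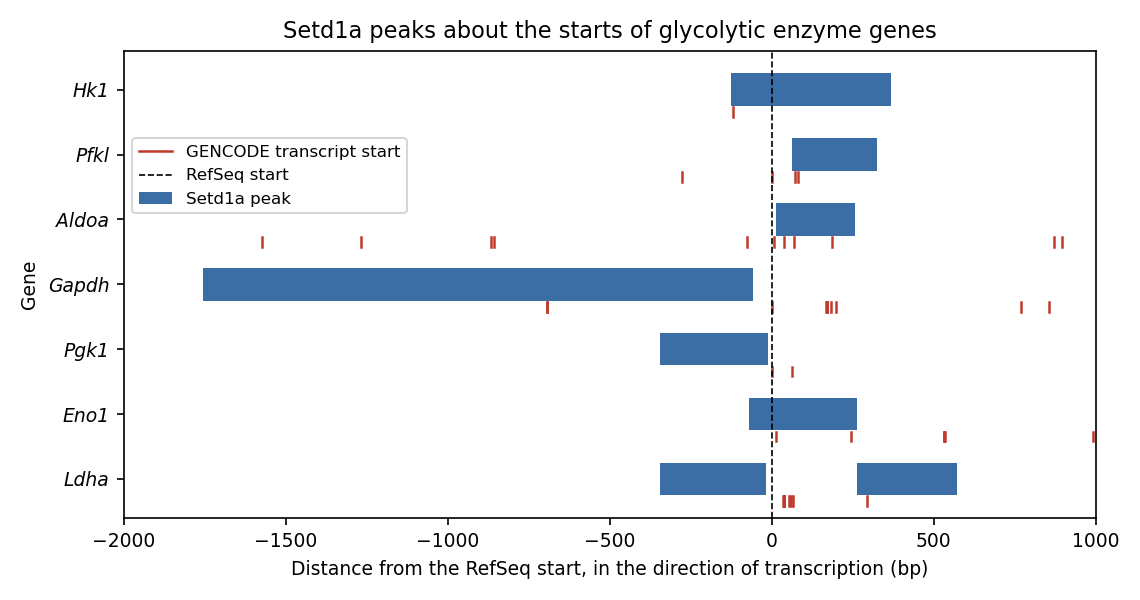
Position of the Setd1a peaks (blue bars) relative to the RefSeq start (dashed line, 0 bp; the nearest where a gene has several) of the 7 glycolytic genes that have one, in the direction of transcription, with GENCODE transcript starts in red. The peaks of *Pgk1* and *Gapdh* and the first peak of *Ldha* lie wholly upstream of the start, and those of *Pfkl* and *Aldoa* wholly downstream. The intronic peak of *Hk1*, 19560 bp downstream, and transcript starts outside the axis are not drawn.

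*Hk1* and *Hk2* encode hexokinases, which phosphorylate glucose in the first step. *Hk1* (chr10:62268855-62379908, minus strand, 111054 bp, 20 annotated transcripts) had 2 peaks, as did *Ldha* and no other gene of the set. The first, chr10:62340055-62340547, was 493 bp wide and covered an internal RefSeq start, reaching from -126 to 366 bp of it (negative values are upstream). Of its bases, 488 were exonic, 467 in a UTR and 21 coding, and its GC content was 67.1% with an observed to expected CpG ratio of 0.63. The antisense gene *Hk1os* starts within this peak, so the peak cannot be assigned to the sense or the antisense start. The second, chr10:62320367-62320861, was 495 bp wide, wholly intronic and 1974 bp from the start of a protein-coding transcript further downstream, with a CpG ratio of 0.165. Neither lay at a principal start of *Hk1*, of which there are 2, with their nearest peaks 17815 and 21706 bp away. The second of these, at the 5′ end of the gene, is also the other RefSeq start, and its promoter had a GC content of 51.3% and a CpG ratio of 0.0507. The 2 RefSeq starts of *Hk1* thus differed both in CpG content and in the presence of a peak.

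*Hk2* (chr6:82725025-82774454, minus strand) was the most distant from any peak. The nearest one lay 279906 bp away over the TSS of *Aup1*, and 77.8% of protein-coding genes had a nearer peak. The median distance over all protein-coding genes was 56.0 kb, with quartiles of 5.74 and 229 kb. No peak lay within 100 kb of *Hk2* and 7 lay within 1 Mb, and the interval without peaks that holds the gene spanned 1067 kb.

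*Gpi1* encodes glucose-6-phosphate isomerase of the second step and is the only gene of that step. At chr7:34201330-34230336, minus strand, its nearest peak was 158795 bp away, a peak of 867 bp over the TSS of *Lsm14a*, and 68.9% of protein-coding genes had a nearer peak. The peak-free interval around *Gpi1* was longer than that around *Hk2* at 3238 kb, of which 3050406 bp lay on the side of lower coordinates. *Gpi1* thus had 5 peaks within 1 Mb and none within 100 kb.

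*Pfkl* encodes the liver-type subunit of phosphofructokinase, which commits sugar to glycolysis. Its peak, chr10:78009482-78009745, was 264 bp wide and began 62 bp downstream of the RefSeq start, ending at 325 bp. It covered the starts of 2 transcripts that are not annotated as protein-coding, while the principal start stayed outside it. *Aldoa* encodes aldolase A, which splits the 6-carbon sugar, and has 2 overlapping gene models. Its peak, chr7:126798922-126799164, was 243 bp wide, began 14 bp downstream of a RefSeq start, ended at 256 bp and covered 3 transcript starts. The peaks of *Pfkl* and *Aldoa* were the narrowest of the set, and only 7.69% and 2.47% of promoter peaks were narrower. The coding gene *Fam57b* starts 1254 bp from the *Aldoa* peak on the other strand, so the peak is also a promoter peak of that gene. The start of the second *Aldoa* model had its nearest peak 9944 bp away.

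*Gapdh* encodes glyceraldehyde-3-phosphate dehydrogenase, which makes the NADH of the pathway. Its peak, chr6:125165831-125167530, was 1700 bp wide, and 99.3% of promoter peaks were narrower. It reached from -1757 to -58 bp of the RefSeq start, with its middle at -907 bp. Over the 3401 peaks at RefSeq starts, the middle had a median position of 16 bp after the start (quartiles -152 and 166 bp), and 1.23% lay further upstream than that of *Gapdh*. The peak did cover a GENCODE start at chr6:125166467, shared by 2 protein-coding transcripts, and 637 of its bases lay in the gene. Position relative to the start therefore depended on which of these 2 starts was used, out of 10 annotated TSSs of the gene. A transcript of the neighbouring gene *Ncapd2* starts 1754 bp from the other end of the peak.

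*Pgk1* (chrX:106187100-106203699, plus strand, 3 transcripts) had 1 peak, chrX:106186755-106187086, 332 bp wide. It lay wholly upstream, from -345 to -14 bp of the start, with its middle at -180 bp, and no base of it fell in the gene. Of the peaks at RefSeq starts, 21.9% had a middle further upstream, and that of *Pgk1* lay a little outside the lower quartile of -152 bp. Its width was below the median promoter peak of 508 bp (quartiles 354 and 741.5 bp), and 21.1% of promoter peaks were narrower. The GC content of the *Pgk1* peak was 62.3%, and its CpG ratio was 0.686. No other peak lay within 1 Mb of *Pgk1*. The X chromosome held 38 of the 6969 peaks, and 2.64% of its protein-coding genes (25 of 948) had a promoter peak, so the *Pgk1* peak was among few on this chromosome.

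*Eno1* encodes enolase 1, which forms phosphoenolpyruvate. Its peak, chr4:150236636-150236970, was 335 bp wide, almost equal to that of *Pgk1*, but it spanned the first of 3 RefSeq starts, from -72 to 262 bp, and covered 2 GENCODE starts. The other RefSeq starts of *Eno1* lay 227 and 254 bp downstream of the peak. At 71.9% it had the highest GC content of the 9 peaks, with a CpG ratio of 0.86.

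*Pkm* encodes pyruvate kinase M, which makes pyruvate and ATP. No peak lay within 3000 bp of its 11 TSSs or in the gene (chr9:59656368-59679375, plus strand). The nearest peak, chr9:59695087-59695401, lay beyond the 3′ end, 23501 bp from the start of a retained-intron transcript and 30285 bp from the nearest protein-coding start. The principal start of *Pkm* had its nearest peak 38630 bp away, on the upstream side of the gene. *Pkm* was thus nearer to a peak than the median gene (36.4% of protein-coding genes were nearer), unlike *Hk2* and *Gpi1*, and 5 peaks lay within 100 kb.

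*Ldha* encodes lactate dehydrogenase A, which regenerates NAD from NADH. It had 2 peaks on either side of its RefSeq start at chr7:46845804. The upstream peak, chr7:46845459-46845786, was 328 bp wide and lay at -345 to -18 bp, the same offset of its far edge as at *Pgk1*. The downstream peak, chr7:46846066-46846374, was 309 bp wide, lay 262 to 570 bp after the start and covered 278 bp of UTR sequence. The start itself lay between these peaks, and of the 15 transcripts 14 began within 3000 bp of one of them.

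**Figure D2:**
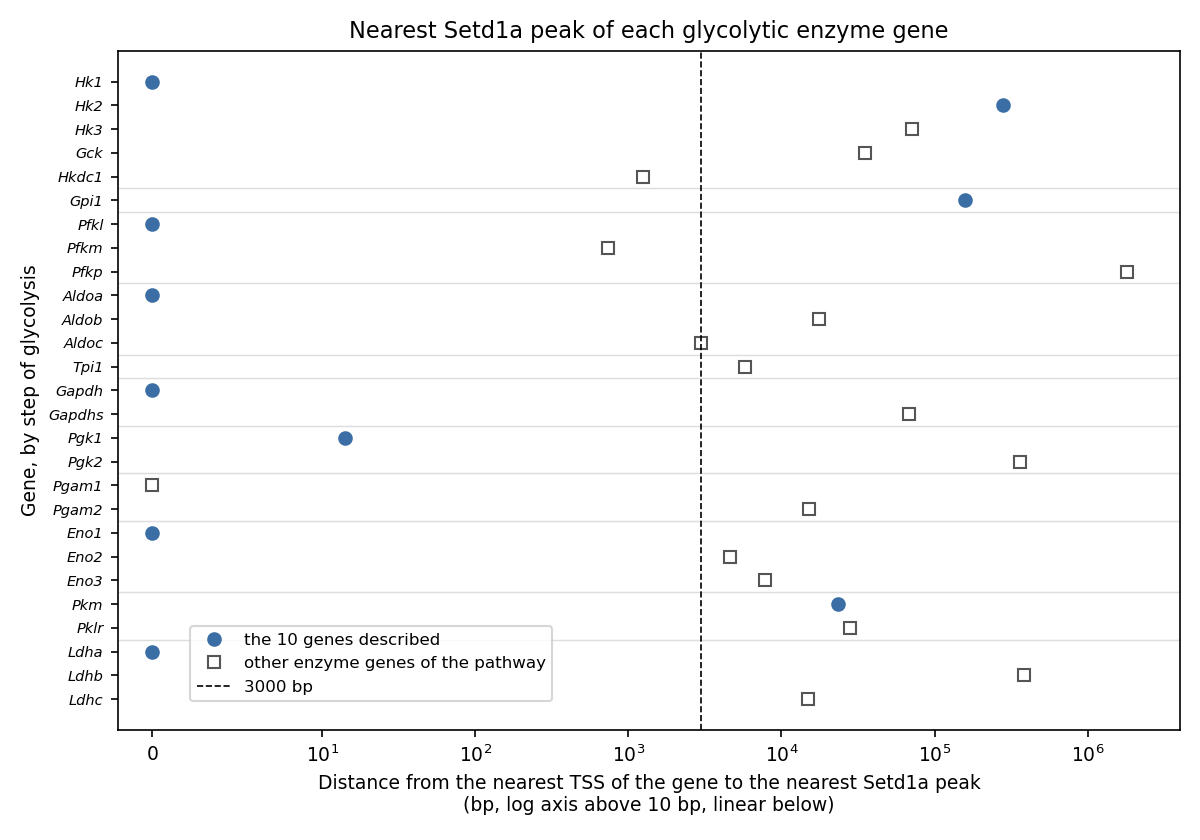
Distance in bp from the nearest TSS of each of 27 glycolytic enzyme genes to its nearest Setd1a peak, ordered by step, on an axis that is linear up to 10 bp and logarithmic beyond. Filled points are the 10 genes described and open squares the other enzyme genes of the same steps. Of the 27 genes, 11 lie left of the 3000 bp line, and the filled points of *Hk2*, *Gpi1* and *Pkm* lie right of it.

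By step of the pathway, 8 of 11 steps had at least 1 enzyme gene with a promoter peak. The 3 without were glucose-6-phosphate isomerase (*Gpi1*), triose phosphate isomerase (*Tpi1*, nearest peak 5748 bp) and pyruvate kinase (*Pkm* and *Pklr*). Only 2 of the 11 steps hold a single gene, and no share for comparable groups of genes was computed. By gene, 11 of the 27 had a promoter peak, the 10 described included. Among the 17 other enzyme genes of these steps, 4 had a promoter peak (23.5%), close to the share over all protein-coding genes (23.0%). These were *Hkdc1* at 1253 bp, *Pfkm* at 735 bp, *Aldoc* at 2970 bp and *Pgam1*, whose TSS was overlapped. The peaks at *Hkdc1* and *Aldoc* were near starts of non-coding transcripts only. The phosphofructokinase gene *Pfkp* was 1814687 bp from its nearest peak, and *Ldhb*, the partner of *Ldha*, was 383489 bp from one. Over a wider list of 53 genes of glucose metabolism outside the 10, 17 (32.1%) had a promoter peak.

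Around glycolysis, 5 of 7 genes of the pentose phosphate pathway, which branches off at glucose-6-phosphate, had a promoter peak, *G6pdx*, *Pgd*, *Rpia*, *Tkt* and *Taldo1*, against 23.0% of all protein-coding genes. Of the carriers 3 of 6 did, the lactate carrier *Slc16a1* and both mitochondrial pyruvate carrier genes *Mpc1* and *Mpc2*, while the glucose carrier *Slc2a1* was 185097 bp from a peak. Of pyruvate dehydrogenase genes 2 of 5 did (*Pdha1* and *Pdhx*), of regulators 2 of 11 (18.2%, *Pfkfb2* and *Pfkfb3*) and of gluconeogenesis genes 1 of 7 (14.3%, *Pcx*). The regulators and gluconeogenesis genes are too few for these shares to be read as below 23.0%. The regulator *Hif1a* was 69114 bp from a peak. Of 5 X-linked genes in these lists, *Pgk1*, *G6pdx* and *Pdha1* had a promoter peak and *Pdk3* and *Pfkfb1* did not, against 2.64% of all protein-coding genes on this chromosome. The groups are small, and no difference between them was tested.

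**Figure D3:**
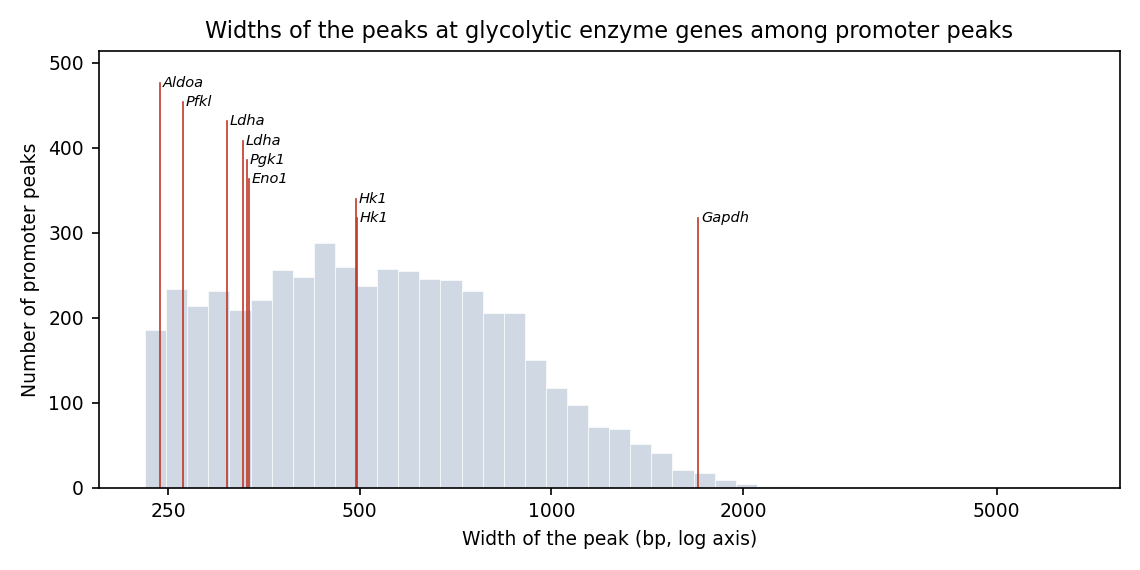
Widths of the 9 peaks at the glycolytic genes (red lines, labelled by gene; their heights carry no value) over the histogram of 4891 promoter peaks, with width in bp on a log axis. Of the 9, 8 are narrower than the median of 508 bp, and that of *Gapdh* at 1700 bp is far into the upper tail.

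In width, 8 of the 9 peaks lay between 243 and 495 bp, below the median promoter peak, and *Gapdh* alone lay above. *Hk1* at 493 and 495 bp was close to that median. In base composition the peaks were compared over 300 bp at their middles with 6950 peaks on the chromosomes, whose median GC content was 58.7% (quartiles 50.7 and 67.3%) and median CpG ratio 0.66 (quartiles 0.252 and 0.88). The intronic *Hk1* peak (0.209) lay below the lower quartile of CpG ratio, *Gapdh* (0.292) lay near it, and the upstream *Ldha* peak (0.801), *Eno1* (0.84) and the downstream *Ldha* peak (0.945) were the highest. *Pgk1* (0.778), *Pfkl* (0.75), the promoter peak of *Hk1* (0.737) and *Aldoa* (0.715) lay between the median and the upper quartile.

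CpG content was also compared between genes with and without a peak, since peaks were common at CpG-rich promoters. A promoter was called CpG-rich when its 300 bp window in the RefSeq table (250 bp before to 50 bp after the start) had a GC content of at least 55% and a CpG ratio of at least 0.6. Of RefSeq protein-coding genes with such a promoter 38.4% (2960 of 7714) had a peak within 1000 bp of a start, and of those without 7.50% (733 of 9778). A gene was called CpG-rich if any of its RefSeq starts passed. By this rule all 10 genes but *Gapdh* were CpG-rich, and 6 of these 9 had a peak. At *Eno1* the start under the peak had a ratio of 0.58 and failed, while the starts 227 and 254 bp from the peak passed. *Hk1*, *Aldoa* and *Ldha* also had a start that failed. *Gapdh* had a peak with a promoter of 56.7% GC and a CpG ratio of 0.501. The 3 genes without a peak were all CpG-rich, with ratios of 0.757 at *Hk2*, 0.856 at *Gpi1* and 0.852 and 1.03 at the 2 starts of *Pkm*. These values were not lower than that of *Pgk1*, 0.723. Other starts with no peak within 1000 bp, at *Hk1* and *Aldoa*, had ratios of 0.0507 and 0. Whether CpG content bears on the presence of a peak was not tested.

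**Figure D4:**
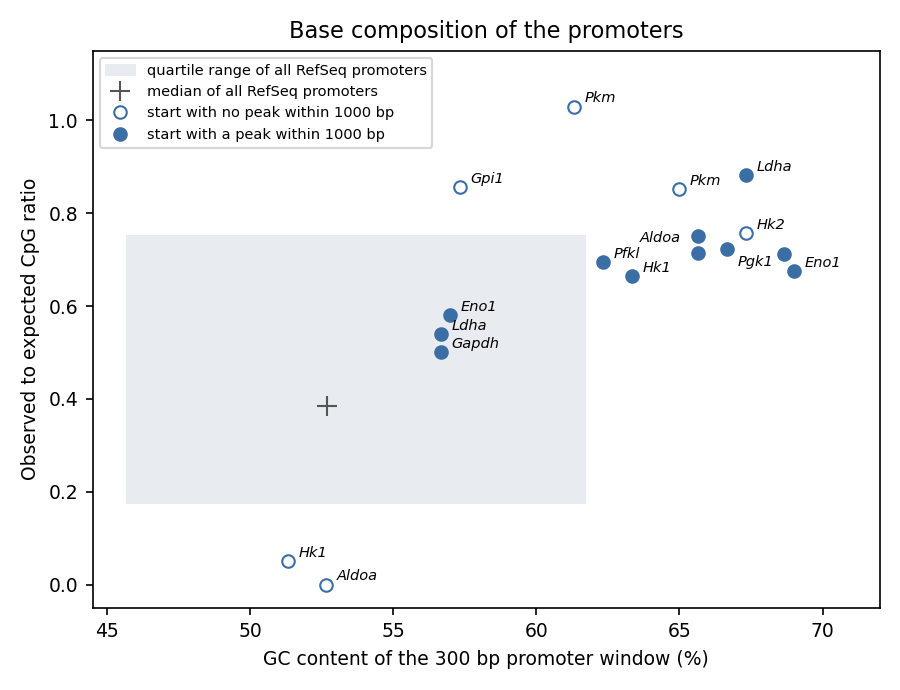
GC content (%) against observed to expected CpG ratio in the 300 bp window of each RefSeq start of the 10 genes, filled where a peak lay within 1000 bp and open where none did. The shaded box is the quartile range of 32851 RefSeq promoters and the cross their median. Open points of *Hk2*, *Gpi1* and *Pkm* lie outside the box, the highest that of *Pkm* at a ratio of 1.03, and the open points of *Hk1* and *Aldoa*, at starts of principal transcripts, have almost no CpGs.

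Motifs were counted in the same 300 bp peak windows, on both strands, so that each E-box counts as 2 ACGTG matches. ACGTG was present in 8 of the 9 windows, all but that of *Pfkl*, and in 22.4% of all peak windows and 19.6% of all RefSeq promoters. The upstream *Ldha* window had 4 matches, all within its 2 E-boxes. The E-box was present in 3 windows, the upstream *Ldha* window, *Aldoa* and the intronic *Hk1* window, and in 7.45% of all peak windows and 7.15% of promoters. *Pgk1* had 2 ACGTG matches with no E-box, a GC box and a CCAAT box. The GC box was present in 7 windows, all but *Aldoa* and the intronic *Hk1* peak, against 44.7% of peak windows and 35.7% of promoters. CCAAT was present in 5 windows, against 33.2% and 37.4%. TATAAA, the TATA box, was in no window or promoter of the 10 genes, against 6.03% of peak windows and 13.6% of promoters. The *Hk2* promoter, with no peak, held 2 ACGTG, 3 GC box and 2 CCAAT matches. ACGTG, the E-box and the GC box each contain a CpG, and the shares over all windows were not matched for base composition. *Hk1* and *Ldha* each gave 2 of the 9 windows. A match is a description of the letters, and no factor was measured.

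Reads had been mapped uniquely, so sequence that occurs elsewhere in the genome could leave gaps in a peak. Words of 32 bases were therefore looked up across the reference. Within 250 bp of the start, none of the 470 words of *Hk2*, and none at the RefSeq start of *Pkm* at chr9:59657227, occurred elsewhere, while 13% of those of *Gpi1* did. At *Pgk1* 22.8% of the words occurred elsewhere. They lay from 79 to 216 bp after the start, and the peak, which ended 14 bp before the start, held none. Whether this bears on where the *Pgk1* peak ended was not tested. In the other peaks repeated words were found only at *Aldoa* (2.36%).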

How the data were processed

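Setd1a CUT & RUN libraries (2, with 1 IgG control) came from quiescent NSC cultures at day 5. Per the labels, the authors demultiplexed with bcl2fastq 2.17.1.14, trimmed with Trimmomatic 0.32, aligned uniquely to mm10 using Bowtie2 2.1.0, filtered with SAMtools 0.1.18, called peaks with MACS2 2.2.8 at default settings and kept those shared by both libraries. The deposited values are positions in bp, with starts read here as 1-based. Whether the IgG library was the control in calling, and how shared intervals were joined, is not given in the sources used here, so a width depends on an unknown step. Depth is unknown, and a gene without a peak is only absent from this list. No column of values was left unmatched.

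Peaks were placed on GENCODE M21 and RefSeq (GRCm38.p6, the assembly of mm10) with Python 3.11.15, numpy 2.4.6, pysam 0.24.0, samtools 1.23.1 and matplotlib 3.10.9. Distance ran from the nearer peak edge to a TSS. The promoter sequences of the 10 genes in the RefSeq table (17 of 17) equalled the genome. The CpG ratio is the CpG count over that predicted from the C and G counts. Gene calls and motif counts were tested on simulated data. Distances at random positions were compared with an exhaustive search of the real peaks. Only the coding of words, not the count across the genome, was tested on a random sequence. The genes named are the 10 enzymes, genes of the 53-gene list with a promoter peak, and genes with a TSS within 3000 bp of a peak of the 10. *Tpi1*, *Pklr*, *Pfkp*, *Ldhb*, *Slc2a1*, *Hif1a*, *Pdk3*, *Pfkfb1*, *Aup1* and *Lsm14a* were named after their values were seen. The genes and lists were chosen with earlier results of these data known. Alternatives covered the promoter window, the set of starts, the assignment of peaks, the minimum width, merging and the definition of a gene-body peak. A sequence at the *Gapdh* peak is not reported here.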

Additional observations from a re-analysis of the deposited data

How the results depend on the processing

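The count of the 10 glycolytic genes with a promoter peak was 7 with windows of 1000, 2000 and 3000 bp, with protein-coding or basic transcripts, with each peak given only to its nearest TSS, with peaks within 1000 bp merged, and with RefSeq starts. It was 6 where the peak had to overlap a TSS (without *Pgk1*) or where principal starts were used (without *Hk1*), and 5 among peaks of at least 300 bp (without *Pfkl* and *Aldoa*, whose nearest peaks were then 13267 and 5101 bp away). RefSeq and principal starts were chosen after seeing the data. The wider list of glucose metabolism fell from 17 genes to 11 where the peak had to overlap a TSS. Peaks inside the gene were present at 6 genes, and at 0 where they also had to be over 3000 bp from its TSSs, while the count over all protein-coding genes fell from 5045 to 988. The nearest-peak distance of *Pkm* was 23501 bp from any transcript and 38514 bp from basic transcripts. GC content was 63.7% over the 300 bp windows and 60.9% over all bases of the whole peaks, in which the wide *Gapdh* peak weighs more. No paired analysis was possible because both Setd1a replicates were deposited as 1 combined list, and for the same reason no replicate could be left out. With no read depth, no binding cannot be told apart from a peak too weak to be called in 1 library or in both.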
